A study of Sus scrofa with 20 samples.

Results

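The sterol and carbohydrate lipogenic regulators described here are 8 genes, taken by symbol: SREBF1, SREBF2, MLXIPL, MLX, INSIG1, INSIG2, SCAP and THRSP. Each symbol matched 1 Ensembl gene of the pig count table, which lists 31907 genes: ENSSSCG00000033626 for SREBF1, ENSSSCG00000026092 for SREBF2, ENSSSCG00000007710 for MLXIPL, ENSSSCG00000017397 for MLX, ENSSSCG00000016420 for INSIG1, ENSSSCG00000036229 for INSIG2, ENSSSCG00000026281 for SCAP and ENSSSCG00000033822 for THRSP. All 8 passed the filter on low counts and were among the 16275 genes tested. The RNA-seq data come from backfat, the fat layer under the skin of the back, and from liver of 5 Nanchukmacdon boars, a Korean pig breed derived from the Jeju native pig. The samples are labelled as wild type, of normal disease state and 22 months of age, while the methods of the study state a different average age. The boars were killed with an overdose of the anaesthetic Alfaxan, small pieces of whole tissue were taken, and nothing was compared other than the tissue. Libraries are named by tissue and by the boar number in the column names (65, 67, 69, 71 and 72). The time since the last meal is not given in the sources used here.

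Cells adjust lipid synthesis through 2 regulatory arms. In the sterol arm, SREBF1 and SREBF2 encode the membrane-bound precursors of the transcription factors SREBP-1 and SREBP-2. SCAP carries them from the endoplasmic reticulum to the Golgi, where proteases release the active factor, and INSIG1 and INSIG2 hold SCAP back when sterols are plentiful. SREBP-2 acts mainly on genes of cholesterol synthesis and uptake, and SREBP-1c mainly on genes of fatty acid synthesis. In the carbohydrate arm, MLXIPL encodes ChREBP, a transcription factor that responds to glucose metabolites and binds DNA together with its partner MLX. THRSP encodes Spot 14, a small protein that rises with lipogenesis and is a target of both arms and of thyroid hormone. Both liver and fat make fatty acids in mammals, and in pigs the fat tissue is the main site.

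The libraries held between 43820042 and 61772737 counts, and the members had between 517 counts (INSIG2) and 85373 counts (THRSP) in single libraries. Levels are given as CPM, counts per 1000000 after scaling by TMM (trimmed mean of M-values), as mean ± SD over 5 libraries. The labelled tissues carried their markers. The 11 hepatocyte markers with an identifier summed to between 35182 and 134421 CPM in liver and between 171 and 614 CPM in backfat, and the 10 adipocyte markers to between 13689 and 17758 CPM in backfat and between 69.1 and 227 CPM in liver. ALB and TTR, which define hepatocytes, were at or below 0.351 CPM in 4 of the 5 backfat libraries, and ADIPOQ, which defines adipocytes, was at or below 0.0637 CPM in the liver libraries. Most of the hepatocyte marker sum of each backfat library came from APOA1, at 195, 213, 482, 173 and 167 CPM in backfat 65, 67, 69, 71 and 72. Most of the adipocyte marker sum of each liver library came from CFD, at 47.0 to 208 CPM. A pair of libraries stood apart. Liver 67 had 44.5% of its counts on the mitochondrial genome, against 6.38% to 20.2% in the other liver libraries, the lowest hepatocyte marker sum (35182 CPM, the others 114606 to 134421) and a sum of 159 CPM for the 3 skeletal muscle markers with an identifier, against at most 1.22 CPM. Backfat 69 had the highest hepatocyte marker sum of its tissue, 614 CPM, which was 1.74% of the lowest sum of a liver library. All 7 fibroblast markers and all 5 tested endothelial markers were higher in backfat, and 4 of 6 tested macrophage markers and 2 of 6 lymphocyte markers were higher in liver (edgeR quasi-likelihood test, Benjamini-Hochberg adjusted p at most 0.05). Of all genes tested, 28.0% were higher in backfat and 27.0% in liver by the same test. In bulk tissue, fewer cells of a type and less RNA per cell cannot be told apart.

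The promoters of the SREBF and INSIG genes and of THRSP are shown, since these genes carry the tissue contrasts and the widest spread described below. RefSeq annotates SREBF1 with 20 merged exons at chr12:60733967-60750951 (plus strand), SREBF2 with 21 at chr5:6719484-6784724 (minus strand), INSIG1 with 6 at chr18:2885494-2898758 (minus strand), INSIG2 with 11 at chr15:23676684-23699591 (plus strand) and THRSP with 2 at chr9:12479913-12484323 (plus strand), all in Sscrofa11.1. Each sequence is the 250 bases before the annotated start of the gene, 5′ to 3′ on the strand of the gene, at chr12:60733717-60733966, chr5:6784725-6784974, chr18:2898759-2899008, chr15:23676434-23676683 and chr9:12479663-12479912 in the same order. The others are MLXIPL with 18 exons at chr3:10898675-10934257, MLX with 8 at chr12:20249760-20257543 and SCAP with 22 at chr13:30253262-30320625, all on the minus strand. Capitals mark matches, on either strand, to the SRE core TCACNCCAC, the E-box CACGTG, the CCAAT box, the GC box GGGCGG and TATAAA.
SREBF1: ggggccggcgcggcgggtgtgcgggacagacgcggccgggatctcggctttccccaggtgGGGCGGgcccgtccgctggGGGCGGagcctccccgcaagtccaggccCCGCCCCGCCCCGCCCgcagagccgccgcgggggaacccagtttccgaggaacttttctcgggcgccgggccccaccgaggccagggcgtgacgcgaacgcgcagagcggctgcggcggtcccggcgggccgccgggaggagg
SREBF2: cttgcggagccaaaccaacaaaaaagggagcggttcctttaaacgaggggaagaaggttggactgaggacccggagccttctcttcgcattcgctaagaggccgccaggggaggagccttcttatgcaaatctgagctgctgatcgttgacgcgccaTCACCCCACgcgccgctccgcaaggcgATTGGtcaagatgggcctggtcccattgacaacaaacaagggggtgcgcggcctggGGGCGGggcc
INSIG1: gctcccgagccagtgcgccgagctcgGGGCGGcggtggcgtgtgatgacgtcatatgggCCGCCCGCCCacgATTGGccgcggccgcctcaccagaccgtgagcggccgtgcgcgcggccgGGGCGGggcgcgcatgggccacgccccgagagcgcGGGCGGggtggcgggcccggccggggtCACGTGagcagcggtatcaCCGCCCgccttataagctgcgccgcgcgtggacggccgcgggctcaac
INSIG2: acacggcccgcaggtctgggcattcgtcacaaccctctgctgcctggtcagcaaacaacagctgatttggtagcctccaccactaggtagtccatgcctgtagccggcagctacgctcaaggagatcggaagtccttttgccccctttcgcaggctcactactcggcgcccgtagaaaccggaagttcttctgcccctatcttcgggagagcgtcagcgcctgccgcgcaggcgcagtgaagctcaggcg
THRSP: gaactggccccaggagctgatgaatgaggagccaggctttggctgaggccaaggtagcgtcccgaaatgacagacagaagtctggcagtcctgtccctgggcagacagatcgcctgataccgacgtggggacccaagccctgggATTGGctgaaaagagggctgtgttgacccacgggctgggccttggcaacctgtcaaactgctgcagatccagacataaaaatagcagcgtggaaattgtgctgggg

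Of the 8 windows of 250 bases, only that of SREBF2 held the SRE core, the element that SREBPs bind. It was written TCACCCCAC from 93 to 85 bases before the start. The SRE core was found in 0.803% of the 19556 protein-coding promoters of the same length. A CCAAT box on the other strand, the element bound by NF-Y, followed 18 bases downstream of it in SREBF2. The palindromic E-box CACGTG, the half-site of the ChREBP and MLX element, was found among the 8 members only in INSIG1, from 67 to 62 bases before the start, and in 6.39% of all promoters. CCAAT boxes were found in SREBF2, INSIG1 and THRSP, and in 31.9% of all promoters. GC boxes, bound by SP1, were found in SREBF1, SREBF2, MLX, INSIG1 and SCAP, and in 45.9% of all promoters. In SREBF1 and in INSIG1 some of these GC-box matches overlapped each other. TATAAA was found in none of the 8 and in 9.77% of all promoters. The windows of MLXIPL and INSIG2 held none of the 5 motifs. For every member, a motif not found says only that its letters are absent from the 250 bases before the annotated gene start. RefSeq lists 2 mRNA models for SREBF1, 7 for INSIG2 and 12 for MLXIPL, and any other transcript starts were not searched. The promoters of INSIG1, SREBF1 and MLX held 43, 38 and 32 CpG sites and those of THRSP, SCAP and MLXIPL 7, 13 and 15, against a median of 12 over all promoters.

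SREBF1 and SREBF2 differed between the tissues in opposite directions. SREBF1 was 2.08-fold higher in backfat and SREBF2 3.47-fold higher in liver. In backfat 65, 67, 69, 71 and 72, SREBF1 was at 126, 96.0, 112, 133 and 116 CPM. In liver of the same boars in the same order it was at 52.6, 15.4, 83.2, 42.1 and 86.0 CPM. Every backfat library lay above every liver library, and the liver values spread 5.59-fold while the backfat values spread 1.38-fold. The means were 116 ± 13.99 CPM and 55.9 ± 29.5 CPM, with a log2 fold change, backfat minus liver, of 1.06 (SE 0.36, 95% interval 0.28 to 1.84) and an adjusted p of 0.0245 (edgeR quasi-likelihood test, Benjamini-Hochberg over 16275 genes, as for all adjusted p-values of single genes here). Backfat was higher in 5 of 5 boars, by log2 differences from 0.43 to 2.64. The lowest liver value was that of liver 67, and without it the log2 fold change was 0.79 and still passed the test. Without liver 71 it was 0.95 and did not (adjusted p = 0.0637).

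SREBF2 was at 57.3, 44.8, 62.3, 84.1 and 87.0 CPM in the backfat libraries. In the liver libraries it was at 259, 133, 273, 215 and 284 CPM. The tissues did not overlap, and the lowest liver value, again of liver 67, was above the highest backfat value. The means were 67.1 ± 18.0 CPM in backfat and 233 ± 61.7 CPM in liver (log2 fold change -1.79, SE 0.26, 95% interval -2.35 to -1.24, adjusted p = 7.4e-05), and liver was higher in 5 of 5 boars. Of the 8 members, SREBF2 had the largest fold change and the smallest adjusted p. Of all 16275 genes, 42.6% had tissues that did not overlap, and of the 8 members 2 did, SREBF1 and SREBF2.

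**Figure D1:**
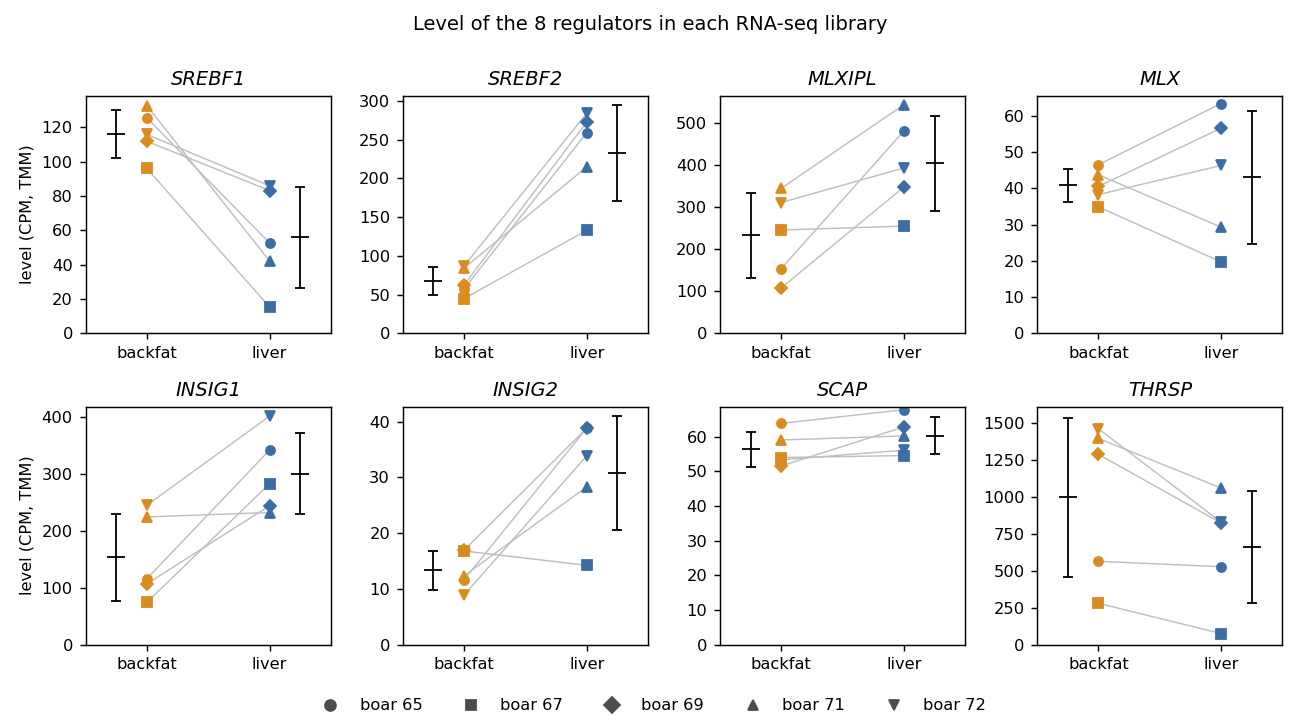
Level of each regulator in every library (CPM after TMM scaling, linear axes from 0), with backfat in orange, liver in blue, grey lines joining the libraries of 1 boar, and black bars giving the mean ± SD of 5 libraries. SREBF1 points of backfat all lie above those of liver, SREBF2 points all lie below, and the other 6 genes overlap between the tissues.

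INSIG1 and INSIG2, the sterol-sensing brakes that retain SCAP in the endoplasmic reticulum, were both higher in liver. INSIG1 was at 115, 73.9, 106, 224 and 244 CPM in backfat and at 341, 282, 244, 232 and 401 CPM in liver. Backfat 71 and 72 stood above the other 3 backfat libraries, and backfat 72 reached past the lowest liver libraries. The means were 153 ± 76.2 CPM and 299.8 ± 70.8 CPM, 1.96-fold higher in liver (log2 fold change -0.97, SE 0.33, 95% interval -1.69 to -0.26, adjusted p = 0.0242), with liver higher in 5 of 5 boars. The call was lost, with an adjusted p between 0.0504 and 0.0606, when backfat 65, 67 or 69 or liver 65 or 72 was left out, at log2 fold changes between -0.91 and -0.79.

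INSIG2 was at 11.6, 16.8, 16.9, 12.3 and 8.87 CPM in backfat and at 38.8, 14.2, 38.8, 28.3 and 33.9 CPM in liver. The liver 67 value was the 1 liver value inside the range of backfat, and in boar 67 backfat was the higher tissue. The means were 13.3 ± 3.49 CPM and 30.8 ± 10.2 CPM, 2.32-fold higher in liver (log2 fold change -1.21, SE 0.28, 95% interval -1.81 to -0.61, adjusted p = 0.00253). Without liver 67 the log2 fold change was -1.43 and passed. RefSeq lists an INSIG2 pseudogene on chromosome 7, so reads shared with that copy could have been lost from the count.

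SCAP, the escort of both SREBPs, was higher in liver in 5 of 5 boars, by log2 differences, backfat minus liver, from -0.28 to -0.02, without passing the test. It was at 63.8, 53.9, 51.5, 59.0 and 53.3 CPM in backfat and at 67.8, 54.5, 62.8, 60.2 and 56.1 CPM in liver. The tissues overlapped, with means of 56.3 ± 5.03 CPM and 60.3 ± 5.32 CPM, and the coefficients of variation of 8.92% and 8.82% were the lowest of the 8 members in each tissue. The log2 fold change of -0.10 (SE 0.13) had an adjusted p of 0.547, and its 95% interval ran from -0.38 to 0.19. Scaling by library size alone shifted the median over all genes by 0.71 (log2) toward backfat and turned the directions of SCAP (0.61), MLX (0.58) and MAX (0.11). INSIG1 (-0.30) and INSIG2 (-0.53) lost their calls with it, and SCAP passed as higher in backfat (edgeR adjusted p = 0.0127). Relative to that median SCAP was at -0.097, MLX at -0.13, INSIG1 at -1.01 and INSIG2 at -1.24.

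MLXIPL, which encodes ChREBP, was higher in liver in 5 of 5 boars without passing the test. It was at 154, 246, 108, 345 and 311 CPM in backfat and at 482, 255, 348, 544 and 393 CPM in liver. The tissues overlapped, since backfat 71 and 72 lay above liver 67. The means were 233 ± 101 CPM and 404 ± 113 CPM (log2 fold change -0.80, SE 0.33, 95% interval -1.52 to -0.08, adjusted p = 0.0583). With the boar as a block in edgeR the log2 fold change was -0.87 and passed (adjusted p = 0.0403), as it did with limma-voom without a block (-0.87, adjusted p = 0.0355). It also passed without liver 67 (-0.95, adjusted p = 0.0284) and without backfat 71 (-0.97, adjusted p = 0.0347).

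MLX, the shared DNA-binding partner of ChREBP and its paralog MondoA, was at 46.5, 34.9, 40.6, 43.8 and 38.3 CPM in backfat. In liver it was at 63.4, 19.7, 56.6, 29.3 and 46.3 CPM. The liver values lay on both sides of the backfat values, and liver was the higher tissue in 3 of 5 boars. The means of 40.8 ± 4.55 CPM and 43.1 ± 18.3 CPM did not pass the test (log2 fold change -0.08, SE 0.27, 95% interval -0.67 to 0.51, adjusted p = 0.825). An exon of PSMC3IP on the opposite strand overlaps MLX exons over 392 bases, and the counting did not use strand, so reads there could be lost from both genes.

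THRSP, the Spot 14 gene, had the highest level per length of the members and the largest coefficients of variation. It was at 565, 279.8, 1291, 1399 and 1465 CPM in backfat and at 528, 74.6, 825, 1062 and 830.1 CPM in liver. The tissues overlapped. Boars 65 and 67 had the lowest values in both tissues, and the spread between libraries was 5.23-fold in backfat and 14.2-fold in liver. Backfat was higher in 5 of 5 boars, by log2 differences from 0.10 to 1.91, with the largest in boar 67. The difference did not pass the test (means 999.7 ± 540.3 CPM and 664 ± 380.0 CPM, log2 fold change 0.59, SE 0.61, 95% interval -0.73 to 1.91, adjusted p = 0.431). Without liver 67 the log2 fold change was 0.26, and with the boar as a block it was 0.76 with an adjusted p of 0.0837.

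In all, 4 of the 8 members passed at an adjusted p of at most 0.05, where 55.0% of all genes tested did. SREBF1 was higher in backfat, where 28.0% of all genes were, and SREBF2, INSIG1 and INSIG2 were higher in liver, where 27.0% were. None of the 8 also reached a log2 fold change of 2 in either direction, the threshold that the study set for a DEG, which 22.3% of all genes did. At an unadjusted p under 0.05 edgeR gave 5 members, the fifth being MLXIPL, where the share of all genes is at least the 55.0% above. DESeq2 and limma-voom also gave no member past both thresholds. Of the genes that passed, 50.9% were higher in backfat, and 77.9% with scaling by library size alone. The members had a median log2 fold change of -0.45, and all tested genes one of 0.00014.

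**Figure D2:**
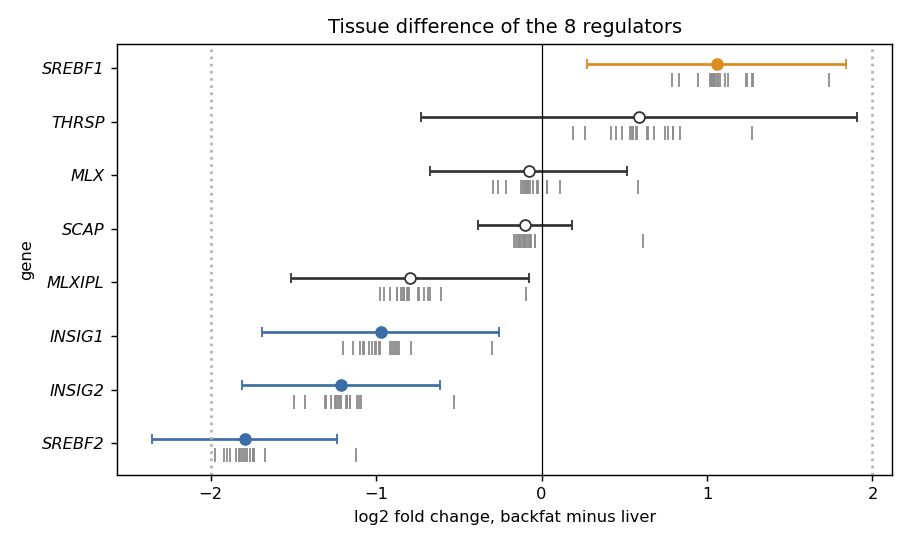
Log2 fold change of each regulator, backfat minus liver, with its 95% interval (filled symbols passed at an adjusted p of at most 0.05, open symbols did not), and below each a grey tick for every one of 19 alternative analyses. Dotted lines mark a log2 fold change of 2 in either direction, and all 8 estimates lie between them.

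Ratios within a library do not depend on the scaling between libraries, so 5 ratios of reads per kilobase of exon were compared. The ratio of SREBF1 to SREBF2 was 3.50, 3.42, 2.87, 2.52 and 2.13 in backfat 65, 67, 69, 71 and 72. In liver of the same boars it was 0.324, 0.185, 0.487, 0.313 and 0.483. SREBF1 was thus the more abundant transcript per length in every backfat library and SREBF2 in every liver library. The geometric means were 2.84 in backfat and 0.338 in liver, an 8.39-fold difference (3.07 on the log2 scale). An exact permutation test, two-sided and over 252 arrangements, gave p = 0.00794, which is the lowest these can give, and 0.0198 after Benjamini-Hochberg adjustment over the 5 ratios. It held in 5 of 5 boars, for which the exact sign-flip test paired by boar gave p = 0.0625, the smallest that 5 pairs allow.

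The ratio of SCAP to INSIG1 plus INSIG2 was higher in backfat with the exon lengths of the deposited table, being 0.609, 0.627, 0.472, 0.323 and 0.280 in backfat and 0.212, 0.240, 0.251, 0.273 and 0.160 in liver. Backfat 71 and 72 came nearest to liver, and the lowest backfat value lay just above the highest liver value. The geometric means were 0.439 and 0.223, a 1.96-fold difference (0.97 on the log2 scale, exact permutation p = 0.00794 and 0.0198 after adjustment), again in 5 of 5 boars. With 4 liver libraries the exact permutation test gave adjusted p-values of 0.0595 without liver 65 and 0.0661 without liver 72. The sum of 2 genes makes this ratio depend on their exon lengths, of which that of INSIG1 is 8439 bases in the deposited table and 2851 in RefSeq. With RefSeq lengths, an alternative chosen after seeing the data, the tissues overlapped (0.136 to 0.404 in backfat and 0.0847 to 0.154 in liver) and the difference of 0.98 on the log2 scale no longer passed (exact permutation p = 0.0317 and 0.0529 after adjustment).

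INSIG1 exceeded INSIG2 per length in all 10 libraries, and this ratio did not separate the tissues. It was 3.47, 1.54, 2.19, 6.34 and 9.61 in backfat and 3.06, 6.93, 2.19, 2.86 and 4.13 in liver. The geometric means of 3.72 and 3.53 differed by 0.08 on the log2 scale (exact permutation p = 0.881), a difference whose sign turned when backfat 71 or 72 or liver 69 or 71 was left out.

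ChREBP was compared with its partner and with its paralog. The ratio of MLXIPL to MLX was 2.09, 4.46, 1.69, 4.99 and 5.15 in backfat and 4.81, 8.19, 3.89, 11.7 and 5.38 in liver. It was higher in liver in 5 of 5 boars, with geometric means of 3.32 and 6.27, and did not pass (difference -0.92 on the log2 scale, exact permutation p = 0.103 and 0.129 after adjustment). The ratio of MLXIPL to MLXIP, which encodes MondoA, a glucose-responsive factor known from muscle, was 7.91, 11.7, 12.1, 27.6 and 32.7 in backfat. In liver it was 67.4, 22.0, 54.9, 162 and 89.4. MLXIPL was the more abundant of the pair in every library, by a geometric mean of 15.9-fold in backfat and 65.2-fold in liver (difference -2.04 on the log2 scale, exact permutation p = 0.0238 and 0.0397 after adjustment). The adjusted p rose to between 0.0529 and 0.0794 without backfat 65, 67 or 69 or without liver 65, 69, 71 or 72.

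**Figure D3:**
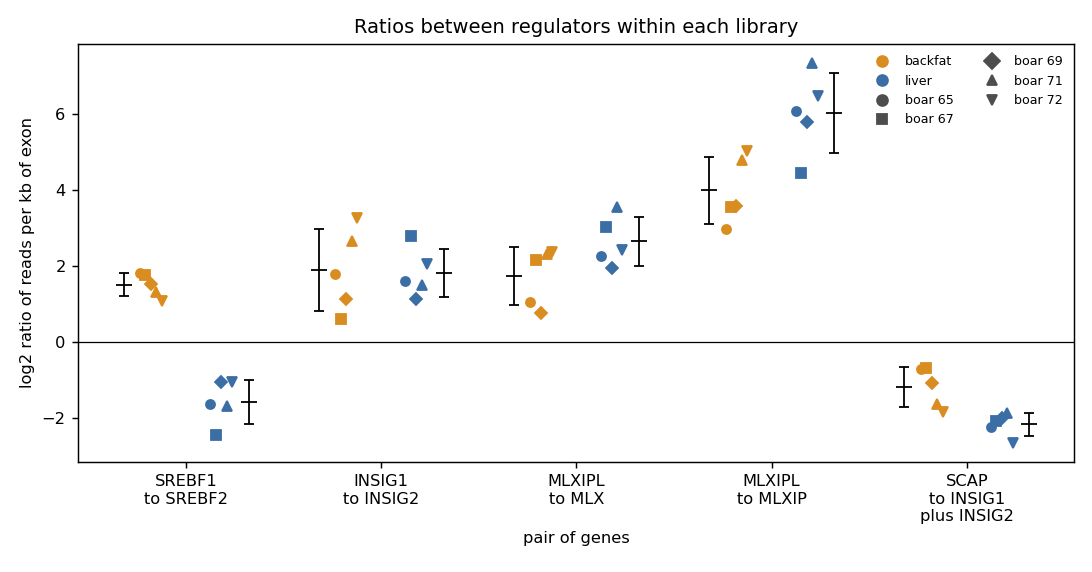
Log2 ratio of reads per kilobase of exon between regulators within each library, with backfat in orange, liver in blue, a symbol for each boar, and black bars giving the mean ± SD of 5 libraries. The ratio of SREBF1 to SREBF2 lies above 0 in all backfat libraries and below 0 in all liver libraries.

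Per kilobase of exon, the order of the members differed between the tissues. In backfat the mean RPKM, the CPM divided by the exon length in kilobases, was 191 for THRSP, 50.9 for MLXIPL, 25.4 for SREBF1, 18.1 for INSIG1, 14.1 for MLX, 9.46 for SCAP, 9.16 for SREBF2 and 4.52 for INSIG2. In liver it was 127 for THRSP, 88.4 for MLXIPL, 35.5 for INSIG1, 31.8 for SREBF2, 14.9 for MLX, 12.2 for SREBF1, 10.5 for INSIG2 and 10.1 for SCAP. The neighbours INSIG1 and MLX (2 of 5 libraries in this order) and SCAP and SREBF2 (3 of 5) did not differ beyond the spread between libraries in backfat. In liver the same held for THRSP and MLXIPL (3 of 5), INSIG1 and SREBF2 (3 of 5), SREBF1 and INSIG2 (2 of 5) and INSIG2 and SCAP (3 of 5). The levels place the members among the more abundant transcripts, from the 62.3 percentile of tested genes (INSIG2) to the 98.97 percentile (THRSP) in backfat. The exon length is that of the deposited table, and it departs from RefSeq most for THRSP (5231 against 993 bases) and INSIG1 (8439 against 2851), so these places in the order depend on the annotation, while the tissue difference of a single gene or of a ratio of 2 genes does not depend on the length divided by.

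Single libraries moved several members at once. Liver 67 had the lowest value of its tissue for 7 of the 8 members, the exception being INSIG1, and backfat 67 the lowest for 5. The share of all genes lowest in these libraries was not counted, so this may not be particular to the members. In backfat, the values of SREBF2, MLXIPL, INSIG1 and THRSP were highest in boars 71 and 72, while those of MLX and SCAP in these boars lay within the range of the other 3. The part of the marker levels above in these values was not tested.

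Genes that the regulators are known to act on were counted from lists chosen with earlier results of these data known. Of the 20 sterol targets, the genes of cholesterol synthesis and uptake regulated by SREBP-2, 18 were higher in liver and none in backfat, with a median log2 fold change of -2.63, beside the 27.0% of all genes higher in liver. STARD4, a sterol carrier, was at 3.08 ± 1.22 CPM in backfat and 84.7 ± 28.0 in liver (log2 fold change -4.78, SE 0.35, edgeR adjusted p = 2.5e-07). LSS, at 0.08 (edgeR adjusted p = 0.865), and ACAT2, at -0.85 (edgeR adjusted p = 0.119), did not pass.

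Among the lipogenic targets of SREBP-1c and ChREBP, of which 12 were tested, 7 were higher in backfat and 3 in liver, with a median log2 fold change of 2.25, beside 28.0% and 27.0% of all genes. ME1, which supplies NADPH, was at 178 ± 170.5 CPM in backfat and 8.67 ± 4.75 in liver (log2 fold change 4.35, SE 0.71, edgeR adjusted p = 2.1e-04). LPIN1, a phosphatidate phosphatase, was at 353 ± 96.1 CPM in backfat and 18.9 ± 4.83 in liver (log2 fold change 4.23, SE 0.29, edgeR adjusted p = 1.3e-07). GPAM, the mitochondrial enzyme that starts glycerolipid synthesis, was higher in liver, at 15.1 ± 1.46 CPM in backfat and 213 ± 146 in liver (log2 fold change -3.82, SE 0.47, edgeR adjusted p = 2.0e-05). The other genes higher in liver were the desaturases FADS1, at 15.8 ± 7.27 CPM in backfat and 180.3 ± 88.0 in liver (log2 fold change -3.51, SE 0.46, edgeR adjusted p = 3.4e-05), and FADS2, at a log2 fold change of -2.996 (edgeR adjusted p = 2.1e-05). PNPLA3 and ACSS2 did not pass, at log2 fold changes of 0.41 (edgeR adjusted p = 0.544) and 0.97 (edgeR adjusted p = 0.161).

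The lipogenic targets set backfat 71 and 72 apart from the other backfat libraries. Their summed level, most of it from FASN and SCD, was 4649, 3483, 5079, 19531 and 17938 CPM in backfat 65, 67, 69, 71 and 72. In liver it was 1961, 726, 2635, 1718 and 2807 CPM. Every backfat library exceeded every liver library, and the backfat values fell into 3 low and 2 high ones. FASN, the fatty acid synthase, was at 3046, 2214, 2529, 9212 and 7839 CPM in backfat, and SCD, the stearoyl-CoA desaturase, at 270.5, 174, 996, 5489 and 6094 CPM. SREBF1 spanned 96.0 to 133 CPM over the same libraries, and the sterol targets summed to 802, 686, 736, 1524 and 1395 CPM there and to 6355, 2343, 6729, 4925 and 6300.2 CPM in liver. SCD was at 330, 153, 527, 484 and 682 CPM in liver 65, 67, 69, 71 and 72. Its values in backfat 65 and 67 lay within that liver range. FASN and SCD were named after their values were seen. Skeletal muscle markers summed to 25.1 and 9.86 CPM in backfat 71 and 72 and to between 107 and 399 CPM in the other 3, while adipocyte markers summed to 14835 and 13689 CPM against 14988 to 17758, and the part of these differences in the pattern was not tested.

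**Figure D4:**
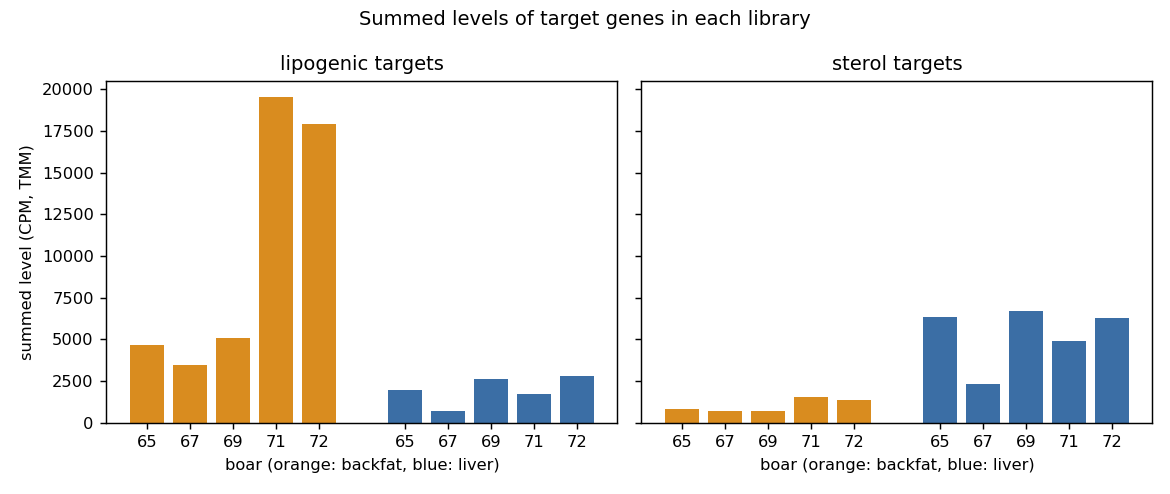
Summed level (CPM after TMM scaling) of 12 lipogenic and 20 sterol target genes in each library, with bars from 0 and the boar number on the horizontal axis. Lipogenic targets reach 19531 and 17938 CPM in backfat 71 and 72 and stay at or below 5079 CPM elsewhere, and sterol targets are at least 2343 CPM in liver and at most 1524 CPM in backfat.

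Of the 12 carbohydrate targets, the genes known to respond to ChREBP, 7 were higher in liver and 3 in backfat, with a median log2 fold change of -3.55, beside 27.0% and 28.0% of all genes. SLC2A5, a fructose transporter, was at 14.7 ± 8.51 CPM in backfat and 0.156 ± 0.146 in liver (log2 fold change 6.59, SE 0.72, edgeR adjusted p = 7.4e-06). TXNIP, an inhibitor of glucose uptake, was at 896 ± 622 CPM in backfat and 135 ± 65.5 in liver (log2 fold change 2.73, SE 0.50, edgeR adjusted p = 5.2e-04), and TKT of the pentose phosphate pathway was the other gene higher in backfat, at a log2 fold change of 1.12 (edgeR adjusted p = 0.00901). G6PC1, the glucose-6-phosphatase that releases glucose from liver, was at 0.0949 ± 0.164 CPM in backfat and 706 ± 400.0 in liver (log2 fold change -12.87, SE 1.06, edgeR adjusted p = 6.2e-07). Backfat 69, with the highest hepatocyte marker sum of its tissue, also had the highest G6PC1 value in backfat (0.39 CPM, against at most 0.03 CPM in the other 4), and without it the log2 fold change was -14.79. With a filter of at least 10 counts in every library, 7 of these genes were left, of which 5 passed, beside 6941 of all 13026 genes.

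Of 12 tested genes whose products process or degrade SREBPs, SCAP and INSIGs, 4 passed, with a median log2 fold change of -0.33, beside the 55.0% of all genes. RNF145, a ubiquitin ligase that acts on SCAP, was higher in backfat, at 38.2 ± 3.39 CPM in backfat and 22.8 ± 5.70 in liver (log2 fold change 0.75, SE 0.18, edgeR adjusted p = 0.00336). FBXW7, the ubiquitin ligase component that marks active SREBPs for degradation, was higher in liver, at 16.6 ± 1.41 CPM in backfat and 39.9 ± 27.0 in liver (log2 fold change -1.26, SE 0.33, edgeR adjusted p = 0.00636). Without liver 67 the log2 fold change of FBXW7 was -0.79, and without liver 67 and backfat 69 it was -0.75, and both passed. With scaling by library size alone FBXW7 was at -0.49 and did not pass (edgeR adjusted p = 0.175). PAQR3, a Golgi anchor of SCAP and SREBP, was also higher in liver, at a log2 fold change of -1.08 (edgeR adjusted p = 4.4e-04). SYVN1 was counted at under 1 CPM, at 0.101 ± 0.0612 CPM in backfat and 0.426 ± 0.180 in liver (log2 fold change -2.07, SE 0.52, edgeR adjusted p = 0.00458). MBTPS1, the site-1 protease, did not pass, at 0.38 (edgeR adjusted p = 0.217). The count of 4 rose to 8 without liver 67, where 9554 of all 16568 genes passed. That was the 1 library whose removal moved the count by more than 1.5 times. With scaling by library size alone the count was also 4, but 3 were higher in backfat and 1 in liver. Of all 16275 genes, 8225 were then higher in backfat and 2329 in liver. The median log2 fold change of the list was then 0.38.

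Of the 11 genes of the MAX and MLX network, 4 passed, with a median log2 fold change of 0.29, beside the 55.0% of all genes. MLXIP was at 15.7 ± 6.18 CPM in backfat and 7.24 ± 3.51 in liver (log2 fold change 1.12, SE 0.35, edgeR adjusted p = 0.0166). MYC was at 44.7 ± 26.5 CPM in backfat and 22.6 ± 3.49 in liver (log2 fold change 0.98, SE 0.32, edgeR adjusted p = 0.0212) and MXD4 at a log2 fold change of 0.66 (edgeR adjusted p = 0.00696), both higher in backfat. MAX, the common partner of this family, was at 42.5 ± 3.996 CPM in backfat and 65.4 ± 12.2 in liver (log2 fold change -0.62, SE 0.15, edgeR adjusted p = 0.00451), with the direction turning as given above when libraries were scaled by size alone. MYC lost its call without backfat 72 (0.58, adjusted p = 0.0523) or liver 71 (0.89, adjusted p = 0.0589). USF1 and USF2, which also bind E-boxes, did not pass.

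Of 16 upstream regulators and partners, 6 were higher in backfat and 4 in liver, beside 28.0% and 27.0% of all genes, with a median log2 fold change of 0.0016. NR1H4, the bile acid receptor FXR, had 2 reads in all backfat libraries together and 15213 in liver, a ratio of 12922 with a 95% interval of 3577 to 106709 that covers counting error only. All backfat reads of NR1H4 were in backfat 69, the library with the highest hepatocyte marker sum of its tissue. NR0B2, the FXR target SHP, was at 0.0143 ± 0.0146 CPM in backfat and 19.3 ± 9.07 in liver (log2 fold change -10.10, SE 0.58, edgeR adjusted p = 3.7e-08). PPARGC1B, a coactivator of SREBPs, was higher in backfat, at 10.7 ± 6.36 CPM in backfat and 3.91 ± 0.7503 in liver (log2 fold change 1.45, SE 0.39, edgeR adjusted p = 0.00671). MID1, a ubiquitin ligase, was at 4.34 ± 0.792 CPM in backfat and 1.80 ± 0.533 in liver (log2 fold change 1.26, SE 0.28, edgeR adjusted p = 0.00208). NR1H3, the liver X receptor that activates SREBF1, and its partner RXRA were higher in liver, at log2 fold changes of -1.76 (edgeR adjusted p = 8.3e-05) and -1.33 (edgeR adjusted p = 8.6e-05), and were named after their values were seen. SP1 and the 3 NF-Y subunits, factors known for GC and CCAAT boxes in general, did not pass, at log2 fold changes of -0.16 (edgeR adjusted p = 0.57), 0.04 (edgeR adjusted p = 0.881), -0.18 (edgeR adjusted p = 0.464) and -0.35 (edgeR adjusted p = 0.087).

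**Figure D5:**
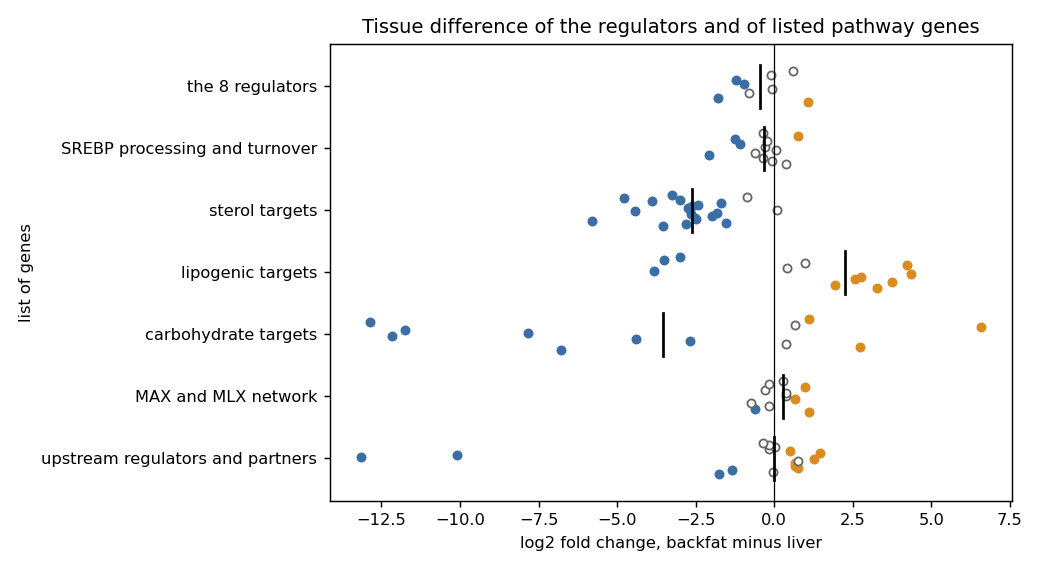
Log2 fold change, backfat minus liver, of the 8 regulators and of the tested genes of 6 pathway lists (a point per gene, filled and orange or blue where it passed in favour of backfat or liver, open where it did not), with black bars at the median of each list. Sterol targets lie to the left of 0 but for LSS, lipogenic targets mostly to the right, and the regulators between -1.79 and 1.06.

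The genes whose pattern over the 10 libraries was most like that of a member were found by the root mean square difference of centred log2 CPM, among 11599 genes. Among the nearest were DGAT1 (0.324) for SREBF1, FAM20C (0.149) and SFXN5 (0.164) for SREBF2, HERPUD1 (0.235) and AHSA1 (0.247) for MLXIPL, and PREP (0.112) and RER1 (0.149) for MLX. For INSIG1 they were PRDX1 (0.258) and PTGES2 (0.282), for INSIG2 MET (0.133) and HSDL2 (0.197), and for SCAP CEP43 (0.080) and ETV6 (0.087). No gene lay near THRSP, whose nearest were SNORA61 (0.70) and NDUFA4 (0.76). DGAT1, an enzyme of triacylglycerol synthesis, was at 64.2, 48.8, 32.7, 62.9 and 60.5 CPM in backfat and at 29.6, 9.40, 30.1, 18.6 and 29.6 CPM in liver, with the lowest value in liver 67 as for SREBF1.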

How the data were processed

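RNA was measured by paired-end sequencing of poly(A) libraries from 5 backfat and 5 liver samples. The authors trimmed the reads, aligned them with HISAT2 to Sscrofa11.1 and deposited raw counts per gene from featureCounts 2.0.1 with Ensembl release 99, run on read pairs over exons without strand. The WGBS calls deposited for the same tissues carry no genomic position and were not used here. Counts were filtered with filterByExpr by tissue, scaled by TMM and tested in R 4.3.3 with edgeR 4.0.16 (quasi-likelihood test, tissue as the only term), with Benjamini-Hochberg adjustment over 16275 genes. edgeR stood in for the DESeq2 of the study, which was run as an alternative (1.42.0), as were limma-voom 3.58.1, other scalings and filters, the boar as a block and leaving out libraries. RPKM used the deposited exon length. Marker and pathway lists are textbook genes.

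The replicate numbers of the labels could not be matched to the columns. The boar numbers in the column names were taken to pair the tissues by animal. Deviations from the tissue means correlated between the libraries of a boar at r = 0.0490 to 0.238 over genes. Libraries of different boars were not compared in this way, so these values cannot show the pairing. Genes were named by rule: all members, from each list the 2 passing genes with the highest and the 2 with the lowest log2 fold change, and the 2 nearest patterns of each member. Other listed genes were named after their values were seen. Some genes that the rule names are not reported here. The members and lists were chosen with earlier results of these data known. The p-values measure the spread between these boars. MBTPS2, ERLIN1 and ACACB had no identifier in the annotation used. Promoters were read from Sscrofa11.1 with RefSeq gene starts, and their motifs searched on both strands. Fits were tested on simulated data with few changed genes, balanced between the tissues. Far more genes differ in the real data, so the simulation cannot test the dependence on scaling. Ratios were compared, and figures drawn, in Python 3.11.15 with scipy 1.17.1 and matplotlib 3.10.9.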

Additional observations from a re-analysis of the deposited data

Results flagged for a closer look

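No member stood out within its tissue by the gap between the extreme library and its nearest neighbour relative to the whole range (Dixon's criterion for 5 libraries). The criterion was applied to 46 sets of 5 libraries, of which 3 met it, and chance gives about 1 in 20. All 3 were sums of marker genes, taken here as CPM of the library total without TMM scaling. The hepatocyte marker sum of backfat 69 was 752 CPM, and the nearest backfat library had 296 CPM. In liver 67 the skeletal muscle marker sum was 114 CPM, with the next liver library at 1.12 CPM, and the red cell marker sum was 1250 CPM, with the next at 279 CPM. Without liver 67 and backfat 69, 4 of the 8 members passed, with INSIG1 lost and MLXIPL gained, beside 9327 of all 16345 genes.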

How the results depend on the processing

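Of 749 recalculated values, 703 were classed as unchanged. For fold changes, and for ratio differences with a p-value, this meant the same direction and the same side of the threshold. Counts of passing genes have neither. They were classed as unchanged unless they moved beyond the limit given above for the processing genes. The count of passing members was so classed in all 19 alternatives, although it was not the same in each. SREBF2 passed in 19 of 19 alternatives, SREBF1 and INSIG2 in 18 and INSIG1 in 12. With the boar as a replicate block in edgeR MLXIPL passed (-0.87), MLX turned to 0.035, and no other call on a member changed. The paired sign-flip test, which cannot reach 0.05 with 5 pairs, left the ratio differences at 3.07 for SREBF1 to SREBF2, -2.04 for MLXIPL to MLXIP and 0.97 for SCAP to the INSIG genes without a call (adjusted p = 0.078). MLXIPL also passed with DESeq2 (-0.81), with limma-voom (-0.87) and without liver 67 and backfat 69 (-0.74), where INSIG1 did not pass (-0.89). Scaling by library size alone moved the scale as given above. INSIG1 (-0.30), INSIG2 (-0.53) and FBXW7 (-0.49) did not pass with it. MLX (0.58), SCAP (0.61, which passed) and MAX (0.11) turned. Of the 11 genes of the MAX and MLX network 8 passed, beside 10554 of all 16275 genes. MLX was at 0.032 with limma-voom. The processing genes that passed were 7 of 12 without liver 67 and backfat 69, beside 9327 of all 16345 genes. The carbohydrate targets were 5 of 7 with at least 10 counts in every library, where fewer genes were tested, beside 6941 of all 13026. With RefSeq exon lengths, chosen after seeing the data, the ratio of SCAP to the INSIG genes did not pass (0.98). Otherwise the cause was not tested.

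Leaving out 1 library at a time gave log2 fold changes of 0.79 to 1.24 for SREBF1, -1.97 to -1.67 for SREBF2, -0.97 to -0.61 for MLXIPL, -0.29 to 0.11 for MLX, -1.20 to -0.79 for INSIG1, -1.43 to -1.09 for INSIG2, -0.17 to -0.04 for SCAP and 0.26 to 0.84 for THRSP. Ratio differences ran from 2.85 to 3.20 for SREBF1 to SREBF2, -0.27 to 0.39 for INSIG1 to INSIG2, -1.09 to -0.67 for MLXIPL to MLX, -2.43 to -1.71 for MLXIPL to MLXIP, 0.85 to 1.14 for SCAP to INSIG1 plus INSIG2. Counts of genes that passed ran from 3 to 5 for members, 4 to 8 for SREBP processing and turnover, 18 to 19 for sterol targets, 9 to 10 for lipogenic targets, 10 to 11 for carbohydrate targets, 3 to 5 for MAX and MLX network, 8 to 11 for upstream regulators and partners, and no member passed both thresholds in any of these. Over all genes the counts ran from 8388 of 16514 without backfat 67 to 9554 of 16568 without liver 67. MLX and the ratio of INSIG1 to INSIG2 turned in some (MLX 0.11 without liver 65 and 0.03 without liver 69, the ratio -0.12 and -0.27 without backfat 71 and 72, and -0.097 and -0.0012 without liver 69 and 71). With 5 libraries per tissue, the standard errors of the members were 0.13 to 0.61.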
